A study of Capsicum chinense and Capsicum frutescens with 8 samples.

Results

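The stem microRNAs (miRNAs) of 2 cultivated chilli peppers were compared, *Capsicum frutescens* (Acc. 4) and *Capsicum chinense* (Bhut jolokia, a very pungent chilli). Each species is represented by 1 genotype and 1 stem library, so 2 of the series' 8 small RNA libraries enter the comparison. Reads of the listed conserved miRNA entries were summed by miR number into families, and a family was kept where both stems together held at least 50 reads. The rule kept 49 of the 672 families listed in either stem, out of 1336 families listed anywhere in the series.

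The other 6 libraries are of flower, fruit and leaf of the same genotypes. Stem was collected from healthy mature plants grown in a glasshouse, and no treatment was applied to either species. Each library was made from a pool of RNA from 3 biological replicates, as the labels' protocols state. The spread between plants therefore cannot be measured, no p-value is given for a stem difference, and every interval covers counting error only.

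Plant miRNAs are cut by Dicer-like enzymes from hairpin precursors and loaded into Argonaute proteins, where they direct the cleavage or translational repression of transcripts that pair with them almost fully. Old families shared by many land plants act on transcription factors of development, on auxin signalling, on copper proteins and on the small RNA machinery itself. In the nightshade family, a further group acts on disease resistance genes of the NBS-LRR type, and in stems miR165 and miR166 are known to set the pattern of vascular tissue through HD-ZIP III transcription factors.

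The C. frutescens stem library held 1132791 listed conserved reads in 851 entries and 530 families. The C. chinense stem library held 1412110 reads in 690 entries and 415 families, or 372 families expected at the depth of the C. frutescens stem. Families of 1 read numbered 327 in C. frutescens and 195 in C. chinense. The 49 kept families held 99.9% of the reads of each stem, and 47 of them were listed in all 8 libraries. No family listed in 1 stem only reached the minimum: the highest of 257 such families in C. frutescens had 14 reads, and the highest of 142 in C. chinense had 17 reads. Just inside the minimum stood miR2599 with 52 reads, miR169 with 53 and miR1448 with 68. Just outside it stood miR6022 with 49 reads, miR2118 with 44 and miR8021 with 42. The libraries are of whole organs and no miRNA was used to check the tissue label.

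Each entry carries the name of a miRNA of another plant and 1 printed sequence, which is often longer than a mature miRNA. Entries printed at more than 24 nt held 98.3% of the C. frutescens stem reads and 98.9% of the C. chinense stem reads. Entries printed at 36 nt, the longest form, held 76.7% of the reads in C. frutescens and 2.64% in C. chinense. Most of this contrast is 1 entry, pta-miR166a, printed at 36 nt in C. frutescens (67.9% of reads) and at 28 nt in C. chinense (70.9%). Length was taken per entry, so these shares do not give the lengths of single reads. Of 426 entries listed in both stems, 76 were printed with the same sequence, 182 shared a run of at least 16 nt, 33 shared such a run only as its reverse complement and 135 shared none. Those 182 entries held 93.9% of the C. frutescens reads and 99.1% of the C. chinense reads, so the counts of most reads refer to sequences with a common core.

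The following printed sequences are those behind the results on plant developmental, resistance, copper and small RNA pathway families. Capitals mark the longest run that an entry's sequences share between the stems. For the entries gma-miR166k and cme-miR168, listed in 1 stem only, capitals mark the run shared with pta-miR166a and bra-miR168c-5p of the same stem.
pta-miR166a in C. frutescens stem: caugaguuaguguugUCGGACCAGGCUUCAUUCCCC
pta-miR166a in C. chinense stem: gugauuUCGGACCAGGCUUCAUUCCCCu
gma-miR166k in C. frutescens stem: gacgaucUCGGACCAGGCUUCAUUCCCC
crt-miR166b in C. chinense stem: ucUCGGACCAGGCUUCAUUCCCUUcc
sly-miR482b in C. frutescens stem: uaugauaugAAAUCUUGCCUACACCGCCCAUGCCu
sly-miR482b in C. chinense stem: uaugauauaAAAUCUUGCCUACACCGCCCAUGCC
ghr-miR482a in C. frutescens stem: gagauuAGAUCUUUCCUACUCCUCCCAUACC
ghr-miR482a in C. chinense stem: AGAUCUUUCCUACUCCUCCCAUACCu
ath-miR159a in C. frutescens stem: UUUGGAUUGAAGGGAGCUCUAUauu
ath-miR159a in C. chinense stem: UUUGGAUUGAAGGGAGCUCUAUuuu
ath-miR319b in C. frutescens stem: UUGGACUGAAGGGAGCUCCCUuuu
ath-miR319b in C. chinense stem: UUGGACUGAAGGGAGCUCCCUcuuua
gma-miR398c in C. frutescens stem: AUGUGUUCUCAGGUCGCCCCUGUu
gma-miR398c in C. chinense stem: AUGUGUUCUCAGGUCGCCCCUGUc
bra-miR168c-5p in C. frutescens stem: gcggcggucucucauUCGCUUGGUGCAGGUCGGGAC
bra-miR168c-5p in C. chinense stem: UCGCUUGGUGCAGGUCGGGACu
cme-miR168 in C. chinense stem: UCGCUUGGUGCAGGUCGGGAuca
ath-miR162b-3p in C. frutescens stem: UCGAUAAACCUCUGCAUCCAGCGCCCUUu
ath-miR162b-3p in C. chinense stem: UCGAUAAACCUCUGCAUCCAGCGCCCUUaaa
vvi-miR394c in C. frutescens stem: UUGGCAUUCUGUCcaccucccu
vvi-miR394c in C. chinense stem: aUUGGCAUUCUGUCuaccucc

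The next printed sequences are of other families, among them the 3 with the largest ratios in either direction, miR3711, miR894 and miR2916. Capitals again mark the run shared by an entry's sequences, except that for bra-miR5723 they mark runs that are reverse complements of each other, and for cpa-miR8155 and rgl-miR5139 the run that these entries share.
pab-miR3711 in C. frutescens stem: cgGAGGUUCAGGCCCUCCUUCUAGCGCCA
pab-miR3711 in C. chinense stem: GAGGUUCAGGCCCUCCUUCUAGCGCCA
ppt-miR894 in C. frutescens stem: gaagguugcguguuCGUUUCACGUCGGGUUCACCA
ppt-miR894 in C. chinense stem: CGUUUCACGUCGGGUUCACCA
cpa-miR8155 in C. frutescens stem: aggaucguAACCUGGCUCUGAUACCA
rgl-miR5139 in C. frutescens stem: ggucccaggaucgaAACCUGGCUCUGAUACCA
peu-miR2916 in C. frutescens stem: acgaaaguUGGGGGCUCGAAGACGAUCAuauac
peu-miR2916 in C. chinense stem: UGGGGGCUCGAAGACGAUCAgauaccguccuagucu
bra-miR5723 in C. frutescens stem: AAUGUGCUGCAAUAUCUUCUgauuu
bra-miR5723 in C. chinense stem: AGAAGAUAUUGCAGCACAUUug

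Of the 49 families, 17 (34.7%) differed 4-fold or more in their share of listed reads. In whole organs, fewer cells of a type and less RNA per cell cannot be told apart, so a share describes the organ. The share was higher in the C. frutescens stem for 14 families (28.6%) and lower for 3 (6.12%). The 14 were miR3711, miR894, miR6025, miR8155, miR398, miR159, miR858, miR319, miR168, miR7767, miR5139, miR5723, miR169 and miR6300, and the 3 were miR394, miR2599 and miR2916. Together the 14 held 13.2% of the C. frutescens stem reads and 1.68% of the C. chinense stem reads. The 3 lower families held 0.00397% in C. frutescens and 0.775% in C. chinense. The remaining families were closer, 19 of the 49 lay within 2-fold, and the intervals of 8 included equal shares. The median log2 ratio of all 49 was 0.80, with 33 ratios over 1 and 16 under 1, and the Spearman correlation of the read counts of the stems over the 49 families was 0.476, a description over families of the same libraries.

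**Figure D1:**
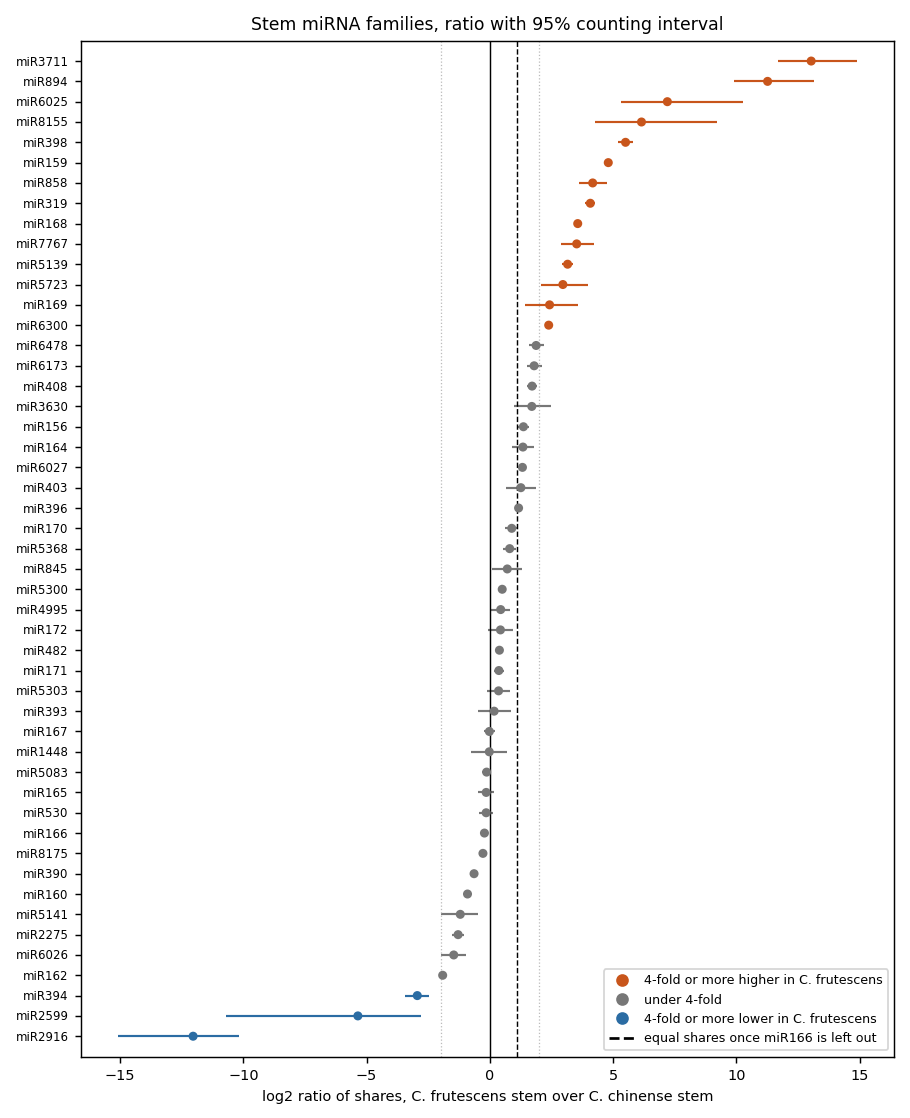
Log2 ratio of a family's share of listed reads, C. frutescens stem over C. chinense stem, for the 49 kept families, with the 95% interval that covers counting error only. The 14 families 4-fold or more higher in C. frutescens lie right of the right dotted line and the 3 lower ones left of the left dotted line, and the dashed line marks equal shares once miR166 is left out (1.11).

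These shares have a common denominator that 1 family dominates. miR166 held 867242 of the C. frutescens stem reads (76.6%) and 1258891 of the C. chinense stem reads (89.1%), a share 1.16-fold lower in C. frutescens. Without miR166 in the denominator every other ratio is 2.16-fold lower, or 1.11 on the log2 scale. The counts are then 11 families 4-fold or more higher in C. frutescens (22.9% of 48) and 8 lower (16.7%), with 23 ratios over 1, 25 under 1 and a median log2 ratio of -0.27. The families miR5723, miR169 and miR6300 leave the 4-fold group at ratios of 3.61, 2.48 and 2.42. The families miR162, miR6026, miR2275, miR5141 and miR160 join the lower group, at folds of 8.14, 5.97, 5.28, 4.96 and 4.05 lower in C. frutescens. Scaling by TMM lowers the ratios 2.01-fold and scaling by DESeq2 size factors lowers them 1.75-fold. The side on which a family of modest ratio falls thus depends on the denominator.

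**Figure D2:**
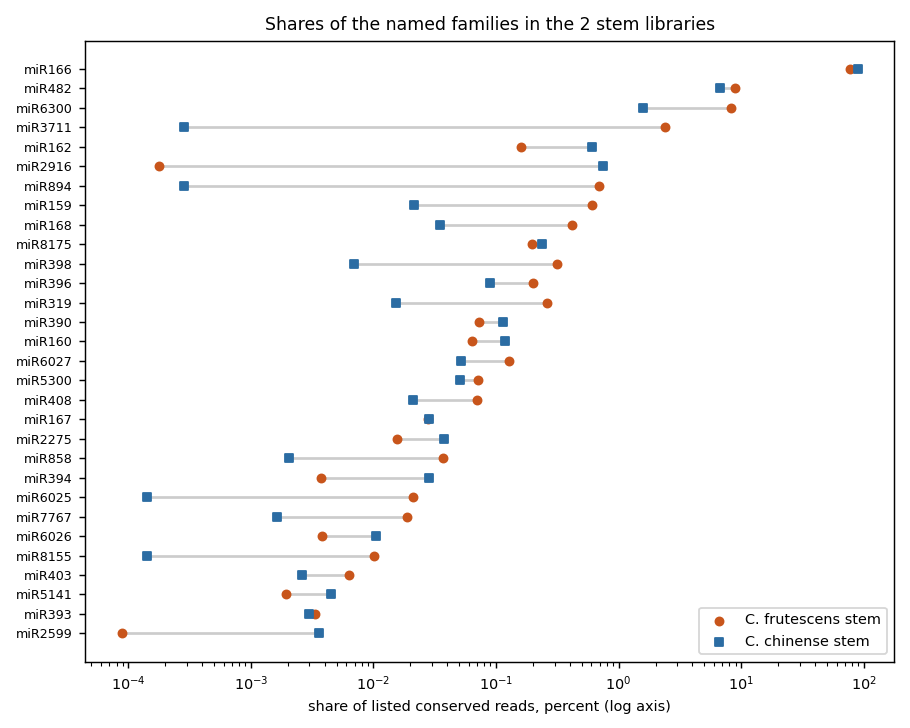
Shares of listed conserved reads (percent, log axis) of the 30 families named by rule, with circles for C. frutescens stem and squares for C. chinense stem. miR166, miR482 and miR6300 lead both stems, and miR3711, miR894 and miR2916 span the widest gaps.

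miR165 and miR166 direct the cleavage of HD-ZIP III transcripts. Within miR166, the entries that carry most reads were not the same in both stems. The leading entry pta-miR166a had 768798 reads in C. frutescens (67.9% of listed reads) and 1001082 in C. chinense (70.9%). The entry crt-miR166b had 3 reads in C. frutescens and 227971 in C. chinense, and gma-miR166k had 56087 reads in C. frutescens and none in C. chinense, a share at least 23306-fold higher against a floor of 3 reads. Their printed sequences, shown above, share runs of 20 nt or more with pta-miR166a. Summed over all entries that hold that 20-nt run, the stems had 825552 reads in 6 entries in C. frutescens and 1229356 reads in 3 entries in C. chinense, a ratio of 0.837 (95% interval 0.835 to 0.839). crt-miR166b and gma-miR166k, which differ the most by entry, are both part of this sum. miR165, counted apart, had 131 reads in C. frutescens and 181 in C. chinense, a ratio of 0.902 (0.715 to 1.14) whose interval includes 1, and of 0.418 without miR166.

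**Figure D3:**
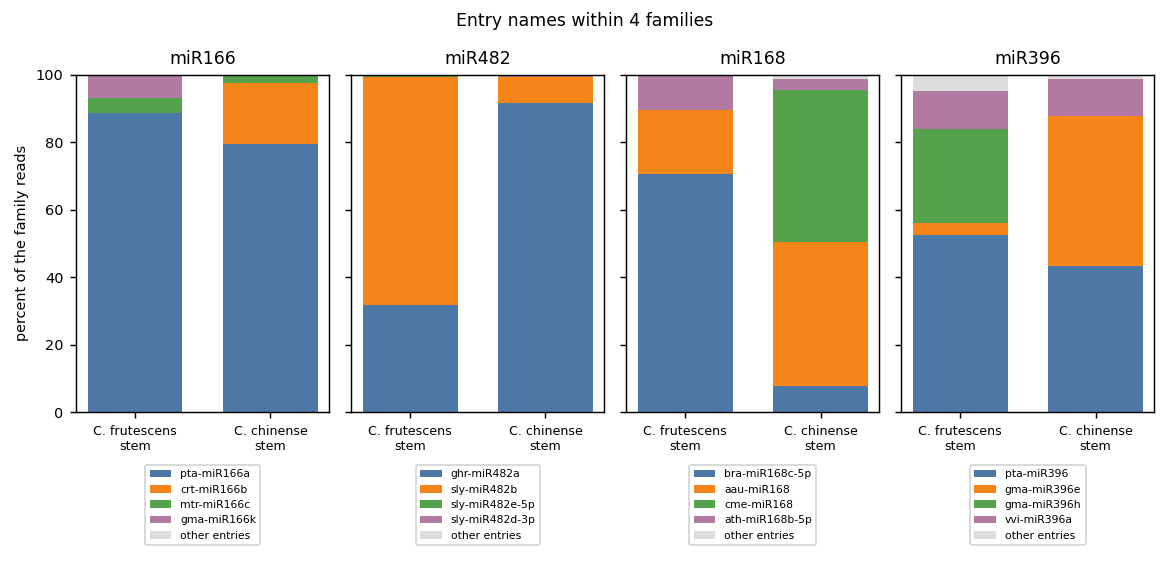
Percent of a family's reads held by its 4 leading entries and by all others (stacked bars), C. frutescens stem left of C. chinense stem, for the 4 families with entries 4-fold or more apart in both directions. In miR482 the entry sly-miR482b held 67.4% of the family's reads in C. frutescens and 7.68% in C. chinense.

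The developmental families miR159 and miR319 were both well above their C. chinense share in the C. frutescens stem. miR159, which acts on GAMYB transcription factors, had 6834 reads (0.603%) in C. frutescens and 305 reads (0.0216%) in C. chinense, a ratio of 27.9 (24.9 to 31.4), and 12.9 without miR166. Most of these reads belonged to ath-miR159a, with 6408 reads in C. frutescens and 125 in C. chinense. The entries that hold its first 20 nt, 4 in C. frutescens and 3 in C. chinense, summed to 6730 reads in C. frutescens and 132 in C. chinense, a ratio of 63.6 (53.5 to 76.1). The entry gma-miR159e-5p, from the other arm of the hairpin, went the other way with 42 reads in C. frutescens and 150 in C. chinense. ath-miR159a is printed at 25 nt in both stems, and without entries outside 20 to 24 nt the family ratio was 0.601.

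miR319, which acts on TCP transcription factors of leaf and organ growth, had 2936 reads (0.259%) in C. frutescens and 217 (0.0154%) in C. chinense. Its ratio was 16.9 (14.7 to 19.4), 7.81 without miR166 and 17.3 with entries of 20 to 24 nt only. The entries that hold the first 19 nt of ath-miR319b, 7 in C. frutescens and 4 in C. chinense, summed to 2510 reads in C. frutescens and 99 in C. chinense. miR159 and miR319 are related in sequence: ath-miR159a and ath-miR319b share a run of 12 nt in the C. frutescens stem.

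miR394, which acts on an F-box gene of the shoot meristem, was the only developmental family with a share 4-fold or more lower in C. frutescens. It had 42 reads (0.00371%) in C. frutescens and 403 (0.0285%) in C. chinense, 7.70-fold lower (5.59 to 10.8), and 16.6-fold lower without miR166. Nearly all of these reads were of vvi-miR394c, whose printed sequences share an unbroken run of 13 nt. miR169, which acts on NF-YA subunits, had 43 reads in C. frutescens and 10 in C. chinense, a ratio of 5.36 with a wide interval of 2.65 to 12.0, and of 2.48 without miR166.

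Other developmental families were closer. miR396, which acts on growth-regulating factors, had 2274 reads in C. frutescens and 1264 in C. chinense, a ratio of 2.24 that was 1.04 without miR166 and 0.697 with entries of 20 to 24 nt only. Within miR396 the entries gma-miR396h (630 reads in C. frutescens, none in C. chinense) and gma-miR396e (85 in C. frutescens, 562 in C. chinense) stood far apart. The C. frutescens form of gma-miR396h and the C. chinense form of gma-miR396e share 21 of 22 nt. The sum over entries printed with that run was 630 in C. frutescens and 562 in C. chinense, a ratio of 1.40. This sum leaves out the 85 C. frutescens reads of gma-miR396e, whose sequence there is printed without the full run. miR156, the regulator of SPL factors and of phase change, had 437 reads in C. frutescens and 212 in C. chinense, a ratio of 2.57 (1.19 without miR166). For miR172, which acts on AP2-type factors, there were 67 reads in C. frutescens and 62 in C. chinense, and its ratio of 1.35, with an interval of 0.939 to 1.93 that includes 1, became 0.624 without miR166. miR164, which acts on NAC factors, had 124 reads in C. frutescens and 61 in C. chinense, a ratio of 2.53 (1.17 without miR166). miR171, which acts on GRAS factors, had 436 in C. frutescens and 422 in C. chinense, a ratio of 1.29 that became 0.596 without miR166.

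Of the 15 families in the developmental list, 14 were kept, 9 with a ratio over 1 and 5 under 1. Their median log2 ratio was 0.66 beside 0.80 for all kept families, and -0.22 beside -0.27 without miR166. At 4-fold or more, 3 were higher and 1 lower in C. frutescens, beside 34.7% of all kept families apart in either direction. Without miR166, 2 were higher and 2 lower.

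All 4 families of the auxin list were kept, and none differed 4-fold, beside 34.7% of all kept families. Without miR166, miR160 did. miR160, which acts on auxin response factors, had 720 reads (0.0636%) in C. frutescens and 1683 (0.119%) in C. chinense, 1.88-fold lower (1.72 to 2.05). miR390, which starts the making of trans-acting small RNAs against other auxin response factors, had 824 reads (0.0727%) in C. frutescens and 1602 (0.113%) in C. chinense, 1.56-fold lower (1.43 to 1.70). Both were lower in C. frutescens also without miR166, 4.05-fold and 3.37-fold. miR167, a further regulator of auxin response factors, had 315 reads in C. frutescens and 398 in C. chinense, a ratio of 0.987 (0.848 to 1.15), 0.457 without miR166 and 1.23 with entries of 20 to 24 nt only. miR393, which acts on auxin receptors, had only 38 reads in C. frutescens and 42 in C. chinense, and its ratio of 1.13, with an interval of 0.708 to 1.79 that includes 1, became 0.522 without miR166. The median log2 ratio of the 4 was -0.33, beside 0.80 for all kept families, and -1.44 without miR166, beside -0.27.

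The families that act on the small RNA machinery lay on both sides of equal shares. miR168, which acts on the Argonaute gene AGO1, had 4688 reads (0.414%) in C. frutescens and 494 (0.0350%) in C. chinense, a ratio of 11.8 (10.8 to 13.0), and 5.48 without miR166. miR162, which acts on the Dicer gene DCL1, had 1826 reads (0.161%) in C. frutescens and 8579 (0.608%) in C. chinense, 3.77-fold lower (3.58 to 3.97), and 8.14-fold lower without miR166. miR403, which acts on AGO2, had 71 reads in C. frutescens and 37 in C. chinense, a ratio of 2.39 (1.59 to 3.66), and 1.11 without miR166.

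The miR168 and miR162 values were looked at by entry. The 5p core of miR168, the strand known to act on AGO1, was read from bra-miR168c-5p with 3310 reads in C. frutescens and 38 in C. chinense. It was also read from cme-miR168, with none in C. frutescens and 223 in C. chinense, at least 59.6-fold lower in C. frutescens against a floor of 3 reads. The entries sharing the 20-nt core summed to 3796 reads in C. frutescens and 276 in C. chinense, a ratio of 17.1 (15.2 to 19.4). The entry aau-miR168, which shares no run over 4 nt with the 5p entry, had 880 reads in C. frutescens and 211 in C. chinense, a ratio of 5.20. bra-miR168c-5p is printed at 36 nt in C. frutescens, and with entries of 20 to 24 nt only the family ratio was 0.818. The miR162 3p core gave 1724 reads in C. frutescens and 8410 in C. chinense, 3.91-fold lower (3.72 to 4.12), close to the value of the whole family.

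Of the families tied to copper and nutrients, only miR398 and miR408 reached the minimum, and both had a higher C. frutescens share. miR398, which acts on copper/zinc superoxide dismutases and accumulates when copper is scarce, had 3569 reads (0.315%) in C. frutescens and 98 (0.00694%) in C. chinense. The ratio of 45.4 (37.1 to 56.1) was 21.0 without miR166 and 31.3 with entries of 20 to 24 nt only. Its main entry gma-miR398c had 2843 reads in C. frutescens and 22 in C. chinense, and the 20-nt core it shares with zma-miR398a-5p gave 3288 reads in C. frutescens and 69 in C. chinense, a ratio of 59.4 (46.8 to 76.5). The entry zma-miR398b-5p shares no run over 4 nt with gma-miR398c and gave 63 reads in C. frutescens and 7 in C. chinense. miR408, which acts on plantacyanin and laccase transcripts and is also a copper-responsive family, had 786 reads in C. frutescens and 299 in C. chinense, a ratio of 3.28 (2.86 to 3.76) that was 1.52 without miR166. Among the nutrient families under the minimum, miR397, which acts on laccases, had 16 reads in C. frutescens and 1 in C. chinense, miR395 had 3 in C. frutescens and 10 in C. chinense, and miR399 had 8 in C. frutescens and 17 in C. chinense.

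miR858, which acts on MYB transcription factors of phenylpropanoid metabolism, had 419 reads (0.0370%) in C. frutescens and 29 (0.00205%) in C. chinense. Its ratio was 18.0 (12.4 to 27.2), 8.34 without miR166 and 11.7 with entries of 20 to 24 nt only. The related family miR828 was absent from the C. frutescens list and had 1 read in C. chinense.

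miR482, which acts on NBS-LRR resistance genes, was the second family of both stems. It had 100315 reads (8.86%) in C. frutescens and 95600 (6.77%) in C. chinense, a ratio of 1.31 that became 0.605 without miR166. The near equality of the family hides 2 entries that differed in opposite directions. sly-miR482b had 67603 reads (5.97%) in C. frutescens and 7339 (0.520%) in C. chinense, an 11.5-fold higher share (11.2 to 11.8), with a ratio of 5.31 without miR166. ghr-miR482a had 31945 reads (2.82%) in C. frutescens and 87637 (6.21%) in C. chinense, a 2.20-fold lower share (2.17 to 2.23), and 4.75-fold lower without miR166. The printed sequences of these entries share no run over 5 nt in either stem. How many mismatches the authors' matching allowed is not given, so whether reads could pass between these entries was not tested. The stems' forms of sly-miR482b differ over 34 nt by A9G, with the C. chinense base first and positions counted from 1 at the 5′ end of the printed sequence, before the shared run. The entry sly-miR482e-5p had 360 reads in C. frutescens and 48 in C. chinense, and sly-miR482a had 18 in C. frutescens and 139 in C. chinense.

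The other resistance families had smaller counts. miR6027 had 1454 reads in C. frutescens and 725 in C. chinense, a ratio of 2.50 (1.16 without miR166). miR5300, a relative of miR482 in nightshades, had 807 reads in C. frutescens and 711 in C. chinense, a ratio of 1.41 that became 0.655 without miR166. miR6026 had 43 reads in C. frutescens and 148 in C. chinense, 2.76-fold lower (1.95 to 3.97), and 5.97-fold lower without miR166. Of 10 families in the resistance list, 4 were kept, none was 4-fold apart beside 34.7% of all kept families, and the median log2 ratio was 0.44 beside 0.80. Without miR166, miR6026 was 4-fold apart, and the median was -0.67 beside -0.27.

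The widest gaps lay in families outside these functional lists. miR3711 had 26942 reads (2.38%) in C. frutescens and 4 reads in C. chinense, a ratio of 8396 (3279 to 30818). miR894 had 7907 reads (0.698%) in C. frutescens and 4 in C. chinense, a ratio of 2464 (962 to 9046). miR2916 stood at the opposite end, with 2 reads in C. frutescens and 10490 (0.743%) in C. chinense, a ratio of shares of 4208 in favour of C. chinense (1164 to 34747).

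Of these, miR894 and miR2916 belong to a list of entries whose status as miRNAs has been questioned because they match other abundant RNAs. miR3711 is not in that list. The 9 listed members held 9.35% of the C. frutescens reads and 2.60% of the C. chinense reads. Of the 7 kept, 5 had a ratio over 1 and 2 under 1, beside 33 over 1 and 16 under 1 of all 49 kept families. The median log2 ratio was 1.88 beside 0.80 for all kept families, and 0.77 beside -0.27 without miR166. At 4-fold or more, 3 were higher and 1 lower in C. frutescens, beside 34.7% of all kept families apart in either direction. Without miR166, 2 were higher and 1 lower. miR6300, the largest of them, had 93768 reads (8.28%) in C. frutescens and 22350 (1.58%) in C. chinense, a ratio of 5.23 (5.15 to 5.31) and of 2.42 without miR166. miR5139 had 1314 reads in C. frutescens and 184 in C. chinense, a ratio of 8.90 (7.62 to 10.4) and of 4.12 without miR166. Its printed sequence shares 18 nt with that of miR8155 in the C. frutescens stem. miR8155, which is not in the list, had 114 reads in C. frutescens and 2 in C. chinense, a ratio of 71.1 (19.2 to 594). The printed sequences of miR8155 in the 2 stems share only 11 nt, so the counts may refer to different sequences. miR8175, like miR2916, had the lower share in C. frutescens, with 2209 reads in C. frutescens and 3345 in C. chinense, 1.21-fold lower.

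The sequences of miR3711, miR894, miR8155 and miR5139 shown above end in CCA, the letters that close a mature transfer RNA. Leading entries with this end were found in 4 of the 14 families higher in C. frutescens, in 4 of the 32 under 4-fold and in none of the 3 lower ones. The 4 under 4-fold were miR8175, miR390, miR160 and miR2275, which include 2 families of the auxin list. Whether a CCA end marks transfer RNA in any of these families was not tested. Entries ending in CCA held 40085 reads (3.54%) in C. frutescens and 5785 (0.410%) in C. chinense. Without miR3711 and miR894 they held 5236 reads (0.462%) in C. frutescens and 5777 (0.409%) in C. chinense. The part of such RNA in the stem differences was not tested. Without all members of the questioned list, 11 families were 4-fold or more higher and 2 lower, of 42. miR3711 and miR8155 are not members and stayed among those 11.

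Further families had few reads in 1 stem. miR6025, described in tobacco, had 236 reads (0.0208%) in C. frutescens and 2 in C. chinense, a ratio of 147 (40.3 to 1222) that was 95.8 with entries of 20 to 24 nt only. miR7767 had 212 reads in C. frutescens and 23 in C. chinense, a ratio of 11.5 (7.46 to 18.5), and 5.32 without miR166. miR5723 had 75 reads in C. frutescens and 12 in C. chinense, but its printed sequences are reverse complements over 20 nt, so the counts may refer to opposite strands. miR2599 had 1 read in C. frutescens and 51 in C. chinense, 40.9-fold lower (7.02 to 1647), and its printed sequences share only 10 nt. miR2275, which in grasses triggers phased small RNAs in anthers, had 175 reads in C. frutescens and 533 in C. chinense, 2.44-fold lower (2.06 to 2.92), and 5.28-fold without miR166. miR5141 had 22 reads in C. frutescens and 63 in C. chinense, 2.30-fold lower (1.39 to 3.92), and 4.96-fold without miR166.

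Arm names, 5p or 3p, were given for part of the reads, and 14 families had at least 50 such reads in each stem. Both arms were listed in both stems for 10 of them. In miR159 the 3p arm, the one that acts on GAMYB transcripts, held 84.8% of the arm-named reads in C. frutescens (80.6 to 88.3) and 4.38% in C. chinense (1.78 to 8.81), from 306 reads of 3p and 55 of 5p in C. frutescens and 7 of 3p and 153 of 5p in C. chinense. These named reads were 5.28% of the miR159 reads in C. frutescens and 52.5% in C. chinense. The entry ath-miR159a, which names no arm, has the 20-nt core of ath-miR159b-3p and is not counted here, so the shares do not describe the whole family. In miR482 the 3p arm held 35.9% in C. frutescens (32.1 to 39.9) and 80.4% in C. chinense (75.9 to 84.3), though arm-named reads were only 0.591% of that family in C. frutescens and 0.384% in C. chinense. The arms of miR319 were closer, with 99.3% on 3p in C. frutescens and 88.9% in C. chinense. In miR162 the 3p arm held 92.9% in C. frutescens and 97.3% in C. chinense. miR390 had 28.7% on 3p in C. frutescens (20.1 to 38.6) and 10.0% in C. chinense (5.93 to 15.5). miR168 had 0.263% on 3p in C. frutescens and 11.7% in C. chinense, where the C. chinense share rests on 7 reads. Arm-named reads were 81.2% of miR168 in C. frutescens and 12.1% in C. chinense, and aau-miR168 and cme-miR168 carry no arm name.

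The same families were set beside the species ratios of the other organs, which come from other libraries. In flower, miR166 held 42.5% of the listed reads in C. frutescens and 93.9% in C. chinense, and in fruit 60.5% in C. frutescens and 90.6% in C. chinense. In leaf it held 66.8% in C. frutescens and 63.7% in C. chinense. Leaving it out lowers every ratio 9.38-fold in flower and 4.20-fold in fruit and raises it 1.10-fold in leaf, so the denominator weighs on flower and fruit more than on stem.

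At 4-fold, 19 of 40 families with at least 50 reads were apart in flower (47.5%), 39 of 57 in fruit (68.4%) and 4 of 42 in leaf (9.52%). Without miR166, 26 of 39 were apart in flower, 31 of 56 in fruit and 5 of 41 in leaf, and in flower the 15 higher and 4 lower families in C. frutescens became 5 higher and 21 lower. The 12 stem families 4-fold apart that reached 50 reads in flower all had the same direction there, against 11 of 14 in fruit and 7 of 13 in leaf. Among all families with at least 50 reads in stem and in the other organ, the direction was the same for 28 of 37 in flower, 32 of 44 in fruit and 21 of 39 in leaf. Without miR166, families 4-fold apart in stem had the same direction for 12 of 14 in flower, 13 of 16 in fruit and 7 of 15 in leaf. Across families, Spearman's correlation of the stem log2 ratio with that of flower was 0.620 over 37 families, with fruit 0.423 over 44 and with leaf -0.122 over 39. These are descriptions over families that share libraries.

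miR398 had a higher C. frutescens share in stem, flower, fruit and leaf, with ratios of 45.4, 24.0, 58.5 and 1.89, and of 21.0, 2.56, 13.9 and 2.07 without miR166. miR168 was also above 1 in all 4 organs, at 11.8, 11.1, 17.2 and 1.13, and at 5.48, 1.18, 4.09 and 1.24 without miR166. miR159 had ratios of 27.9, 5.55, 144 and 1.74, but in flower its ratio was 0.592 without miR166. miR319 likewise had ratios of 16.9, 5.83, 19.1 and 1.26, and 0.622 in flower without miR166.

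miR3711 and miR894 differed little in leaf. There miR3711 had 12915 reads in C. frutescens and 52798 in C. chinense, a ratio of shares of 0.806, and miR894 had 1552 in C. frutescens and 7230 in C. chinense, a ratio of 0.707. The C. chinense stem, flower and fruit each had at most 4 reads of either. Entries ending in CCA held in leaf 7.35% of the C. frutescens reads and 11.3% of the C. chinense reads.

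Other families differed between the organs. miR162 was lower in C. frutescens in stem, flower and leaf but had 26061 reads in the C. frutescens fruit and 2868 in the C. chinense fruit, a ratio of 5.95 that was 1.42 without miR166. miR394 had ratios of 0.928 in flower, 1.27 in fruit and 0.930 in leaf, with intervals that include 1. Without miR166 the miR394 ratio was 0.0601 in stem, 0.0990 in flower, 0.303 in fruit and 1.02 in leaf, so its place in stem beside flower and fruit depends on the denominator. miR858 had ratios of 18.0 in stem and 165 in fruit, against 0.422 in leaf. miR2916 had 1816 reads in the C. frutescens fruit and 1 in the C. chinense fruit, the opposite of stem. miR6025 also turned, with 10 reads in the C. frutescens fruit and 242 in the C. chinense fruit.

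**Figure D4:**
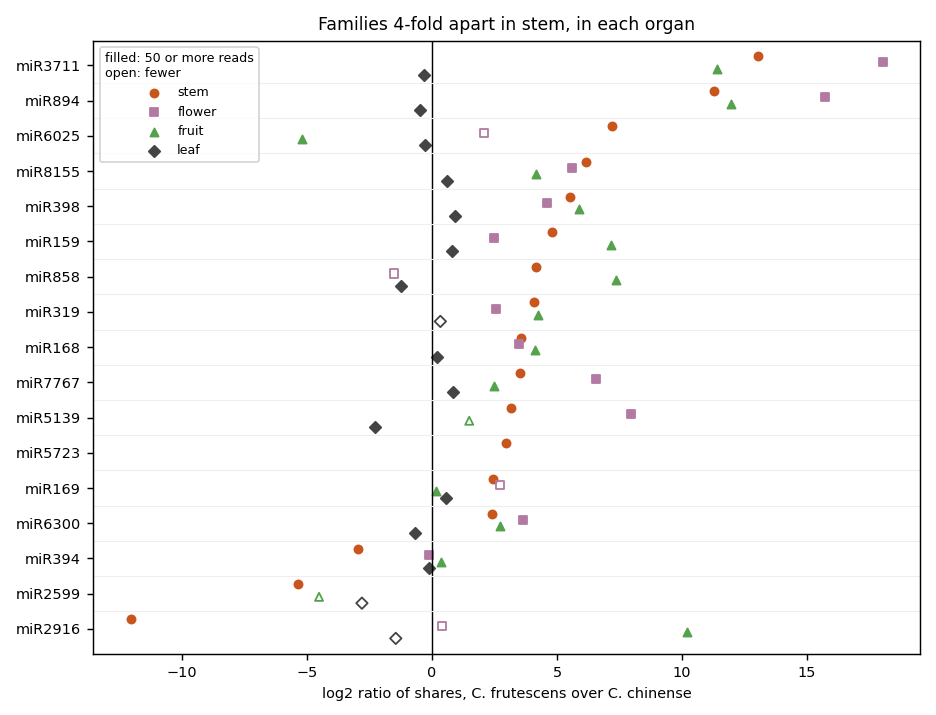
Log2 ratio of shares, C. frutescens over C. chinense, in stem, flower, fruit and leaf, for the families 4-fold or more apart in stem, filled where both libraries together held at least 50 reads, open below that, and left out where a library had no read of the family. Shares include miR166. The leaf points lie near 0 for most families whose stem ratio is high. In fruit miR2916, miR6025 and miR394 change sign, miR394 to a value near 0 (0.35).

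Within each species, stem could be set against its other 3 organs. In C. frutescens 9 of the 49 families had a higher share in stem than in every other organ, among them miR166, miR165, miR319, miR156, miR172 and miR6025, and all of these but miR166, which is then left out, were so without miR166 too. In C. chinense 10 families did, among them miR390, miR160, miR394, miR6027, miR6026, miR172 and miR2916, and of these miR160 was not without miR166. The counts themselves depend on the denominator: without miR166 they were 14 of 48 families in C. frutescens and 12 of 48 in C. chinense. The miR319 share in C. frutescens was 0.259% in stem and 0.00527% to 0.149% elsewhere. The miR394 share in C. chinense was 0.0285% in stem and at most 0.0105% in its other organs.

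Whether the species difference in stem departs from the mean difference in the other organs can be tested, since flower, fruit and leaf give a spread. The interaction of stem with species was tested over the 71 families with at least 10 reads in at least 2 libraries with edgeR's quasi-likelihood test and Benjamini-Hochberg adjustment. It called 0 families (0%), and 2 families, miR2916 and miR6485, had an unadjusted p under 0.05. DESeq2 called 1, miR2916 (adjusted p = 0.000851), and had 8 under an unadjusted p of 0.05. In edgeR the coefficient of miR2916 was -14.51 ± 5.33 on the log2 scale (SE, adjusted p = 1), that is a lower C. frutescens share in stem relative to the other organs. The next lower ones were miR6485 at -8.25 ± 3.17 and miR399 at -3.28 ± 1.85. miR6025 had the highest coefficient, 7.45 ± 3.71, followed by miR1863 at 4.24 ± 2.12 and miR6149 at 4.07 ± 2.21. miR6485, miR399, miR1863 and miR6149 had at most 37 reads in either stem.

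Predicted miRNAs, listed in separate sheets, were few and mostly not shared. The C. frutescens stem had 264 predicted entries with 2031 reads and a median of 4 reads, and the C. chinense stem had 431 entries with 2473 reads and a median of 3. The stems had 9 identical sequences, 3.44% of the distinct sequences in C. frutescens and 2.09% in C. chinense, and 19 when a sequence contained in a longer one was counted. Overlap was also low within a species. The C. frutescens stem shared 11 sequences with its own flower, 16 with its fruit and 8 with its leaf. For the C. chinense stem these numbers were 16, 13 and 8, so the low overlap is not particular to the species comparison. In no other library of the series appeared 219 of the 262 distinct C. frutescens sequences and 385 of the 431 in C. chinense. Most predictions thus rest on few reads of 1 library.

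The predicted sequences that lead each stem are shown with their seed, bases 2 to 8, in capitals.
Cap-m0090-3p in C. frutescens stem, Cap-m0174-3p in C. chinense stem: gAAAUCUUgccgauuccccccca
Cap-m0043-5p in C. frutescens stem: uUUGUUCCgacuaucuuucgucu
Cap-m0177-3p in C. frutescens stem: aCGGCUUCaacgaauuuggcauga
Cap-m0226-3p in C. chinense stem: cGAGCCCCgcugggaccauaau
Cap-m0102-5p in C. chinense stem: uUCUUUACgucuuuccccuuggacc
Cap-m0323-3p in C. chinense stem: uUUUUCACgaugaucgggguuac
The first of these had 136 reads in C. frutescens stem and 17 in C. chinense stem, a ratio per listed conserved read of 9.97 (6.0 to 17.6), and shares an 11-nt run with sly-miR482b. Cap-m0043-5p had 155 reads in C. frutescens stem, none in C. chinense stem and 112 in C. chinense fruit. Cap-m0177-3p had 67 reads in C. frutescens stem and none in any other library. In C. chinense stem, Cap-m0226-3p had 139 reads, Cap-m0102-5p 98 and Cap-m0323-3p 94, with none in C. frutescens stem. The next sequences were Cap-m0098-3p with 48 reads and Cap-m0054-3p with 42 in C. frutescens stem, and Cap-m0021-5p with 53 and Cap-m0027-5p with 48 in C. chinense stem. The other 8 sequences listed in both stems had 3 to 11 reads in C. frutescens and 3 to 6 in C. chinense.

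Predicted sequences of 23 nt were 45.8% of the C. frutescens entries (95% interval 39.7 to 52.1) and 35.5% of the C. chinense entries (31.0 to 40.2). Those of 21 nt, the usual length of Dicer-like 1 products, were 3.41% in C. frutescens (1.57 to 6.37) and 10.9% in C. chinense (8.12 to 14.2). Sequences of 24 nt made up 28.8% of the C. frutescens entries and 26.0% of the C. chinense entries. Those of 22 nt numbered 45 in C. frutescens and 86 in C. chinense. The intervals of these length shares treat entries as independent draws, but some entries are shifted or shortened forms of another. Overlap or separation of the intervals is therefore no test of a species difference in length, which was not tested. A uridine, the usual first base of miRNAs bound by AGO1, opened 29.2% of the C. frutescens entries and 28.5% of the C. chinense entries. Both arms of a hairpin were listed for 11 loci in C. frutescens and 28 in C. chinense.

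**Figure D5:**
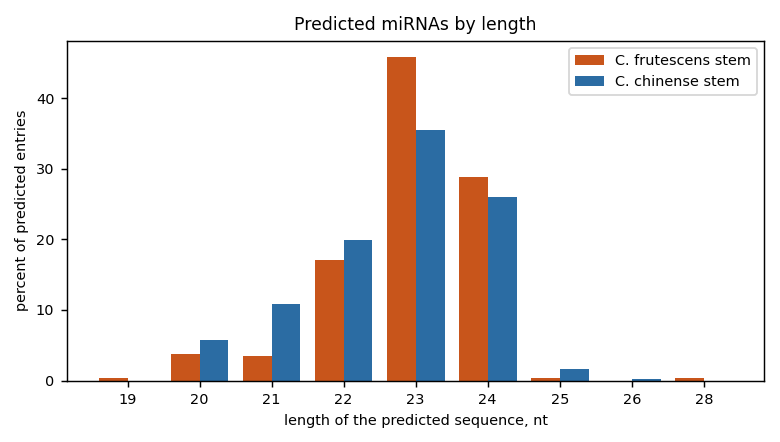
Percent of predicted entries at each length in nucleotides, C. frutescens stem bars left of C. chinense stem bars. The bars peak at 23 nt in both stems, at 45.8% in C. frutescens and 35.5% in C. chinense.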

How the data were processed

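Stem, flower, fruit and leaf small RNA libraries of 1 genotype per species were prepared with a TruSeq kit and sequenced on the Genome Analyser II of Illumina, per the labels' protocols. Per the file headers, the authors deposited read counts per miRNA entry, with conserved and predicted entries in separate sheets, 16 in all. How reads were trimmed, aligned and matched, and which tool predicted miRNAs, is not given in the sources used here. In the conserved sheet of the C. chinense stem, 1 line was empty in the copy used. An unlisted entry was taken as 0 reads. The total of sequenced reads is unknown, so shares refer to listed conserved reads.

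Entries were summed by miR number in Python 3.11.15 with pandas 2.3.3 and numpy 2.4.6. Ratios of shares carry exact conditional binomial 95% intervals and shares exact Clopper-Pearson intervals, both from scipy 1.17.1. These cover counting error only, and reads without molecular identifiers are not independent molecules. Intervals of the length shares of predicted sequences count entries, which were treated as independent. A family or entry without reads in 1 library was set against a floor of 3 reads per library. The interaction test used edgeR 4.0.16 in R 4.3.3 on the counts of all 8 libraries, with TMM scaling and the terms tissue, species and stem by species. It has 2 residual and 5.66 prior degrees of freedom and an adjusted p threshold of 0.05. DESeq2 1.42.0 was the alternative. Of these tests, only that of edgeR was checked on simulated data. Figures were drawn with matplotlib 3.10.9.

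Members, lists and tests were chosen with earlier results of these data known. Families named by rule are the 10 with the highest share, the 10 largest ratios in each direction, the 4 leading members of each list, and the 3 largest interaction coefficients each way. Arms are named at 50 arm-named reads in each stem, and predicted sequences are the 5 with most reads in each stem and all that both list. Others, among them miR5139, miR5723, miR169, miR156, miR164, miR171, miR172, miR165 and members under 50 reads, were named after their values were seen. So were the entries, sequences, cores and CCA ends shown. TMM and DESeq2 stem factors were computed over the kept families, a choice made after the factors over all families, most of them of 1 read, came out equal.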

Additional observations from a re-analysis of the deposited data

How the results depend on the processing

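No paired analysis was possible because the stem comparison has 1 library per species and the labels give no replicate numbers, and organ is a term of the interaction test only. The count of families 4-fold or more lower in the C. frutescens stem, 3 as reported, was 8 without miR166 in the denominator, 7 with TMM factors and 7 with DESeq2 size factors. The share of 4-fold families that were higher in C. frutescens was 82.4% as reported, 57.9% without miR166, 61.1% with TMM, 63.2% with DESeq2 factors and 62.5% with entries of 20 to 24 nt only. Without a minimum of reads 40 of 672 families were apart, 32 higher and 8 lower, against 17 of 49 as reported. At 2-fold 30 of 49 were apart, 23 higher and 7 lower. With entries printed at 20 to 24 nt only, 8 of 28 families were apart, 5 of them higher. Counted by entry name 46 of 95 were apart, 37 higher and 9 lower. Counted over entries linked by a shared run of at least 17 nt, an alternative chosen after seeing the data, 30 of 69 were apart, 26 of them higher. With entries of 20 to 24 nt only, the ratios of miR159 (0.601) and miR168 (0.818) were below 1, because this setting drops ath-miR159a in both stems and bra-miR168c-5p in C. frutescens by construction. Predicted sequences shared by the stems numbered 19 when contained sequences counted, against 9 identical ones. DESeq2 called 1 family in the interaction test, edgeR 0, and the other settings, including each organ pair left out, called 0 with lowest adjusted p from 0.223 to 1. Of the named families, 26 of 29 kept their direction without miR166, 27 of 30 with TMM, 27 of 30 with DESeq2 factors and 11 of 19 with entries of 20 to 24 nt only. Ratios of the other organs without miR166, given with them, were an alternative chosen after seeing the data. Families with few reads in 1 stem, such as miR8155 and miR2599, are limited by depth.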
